A study of Homo sapiens with 9 samples.

Results

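The intervals described here are stretches of chromosomes 1 to 22 that γH2AX ChIP-seq called in wild-type (WT) K562 cells and never in FANCL-knockout (KO) K562 cells. The called regions of all 8 γH2AX libraries (hg19 coordinates) were merged wherever they shared at least 1 bp, and an interval was kept when regions of at least 3 of the 4 WT libraries and of none of the 4 KO libraries lay in it. This left 1380 of 137665 merged intervals, or 1% of them. Of the 3754 intervals called in at least 3 WT libraries, 36.8% were left, and these values follow from how the intervals were chosen and carry no test. They are called WT-only intervals below. In sum they spanned 2.30 Mb, with a median width of 1354.5 bp (quartiles 949 and 1984 bp) and a range from 510 to 16838 bp.

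γH2AX is the histone variant H2AX after phosphorylation by the DNA damage kinases, and it spreads along chromatin on either side of a DNA break or a stalled replication fork. FANCL is the ubiquitin ligase subunit of the Fanconi anaemia core complex, which marks the FANCD2 and FANCI proteins so that crosslinked DNA can be repaired and stalled forks protected. The ends of chromosomes, next to the telomere repeats, are among the places where replication is known to meet obstacles.

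K562 is an established human myelogenous leukaemia line. The 4 groups, with 2 libraries each, were KO cells given 5 nM PMA for 72 h, KO cells mock treated for 72 h, WT cells given PMA in the same way, and WT cells mock treated. PMA, a phorbol ester, activates protein kinase C and sets off megakaryocytic differentiation of this line. The labels name no method, clone or allele for the knockout, and FANCL itself was not measured in these lists. Separate cultures for the libraries of a group are not stated either, so the spread between libraries that enters the p-values may be only technical.

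Depth was 16.0 to 18.3 M tags (M, 1000000 tags) in KO PMA, 15.6 to 17.8 M in KO mock, 17.0 to 27.2 M in WT PMA and 23.4 to 23.9 M in WT mock. All regions were called by the authors against 1 input library, made from WT mock cells, so copy number differences between the genotypes were not corrected for and cannot be told apart from differences in γH2AX. Within called regions the input was densest on chromosome 22 between 23000001 and 24000000, with 26.9 tags per kb and 10 M tags, against a median of 2.86 over 1550 windows of 1 Mb. Chromosome 9 between 133000001 and 134000000 followed with 19.3. Amplified segments of chromosomes 22 and 9 around the BCR-ABL1 fusion are a known feature of K562. The first of these windows held 1 WT-only interval and the second 2.

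The WT-only intervals were mostly weak in the WT libraries themselves. The caller accepted windows of 500 bp at a tag threshold set by the depth of each library, which was 7.12 to 7.69 tags per 10 M in the KO libraries and 5.89 to 7.07 in the WT libraries. In the median WT-only interval, the strongest window of any WT library held 8.25 tags per 10 M, 1.07-fold the highest KO threshold. At least 1 WT library passed that threshold in 957 intervals (69.3%), and at least 3 WT libraries passed it in 139 (10.1%). Among the 2374 intervals with at least 3 WT libraries and at least 1 KO library, 584 (24.6%) had 3 WT libraries above it. When all libraries were held to one tag threshold before merging, the rule gave 162 intervals, 134 of which overlapped a WT-only interval. The absence of a called region in KO libraries therefore marks signal under the caller's threshold there, and for most of these intervals it was not shown that γH2AX was lost.

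The 4 WT libraries contributed unequally. WT PMA replicate 1 called 1286 of the WT-only intervals (93.2%) and WT PMA replicate 2 called 1197 (86.7%), while WT mock replicate 1 called 1085 (78.6%) and WT mock replicate 2 called 783 (56.7%). All 4 libraries called 211 intervals. The commonest combination, in 597 intervals, was that of both PMA libraries with mock replicate 1, and 295 were called by both PMA libraries with mock replicate 2. Both mock libraries and PMA replicate 1 called 183, and both mock libraries and PMA replicate 2 called 94. With 1 WT library left out, the other 3 shared 301 intervals free of KO regions without WT PMA replicate 1, 386 without WT PMA replicate 2, 496 without WT mock replicate 1 and 809 without WT mock replicate 2. WT-only intervals made up 4.58% and 4.31% of the autosomal called length of the WT PMA libraries, and 9.94% and 8.26% of that of the WT mock libraries.

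Just inside the rule, the 1169 intervals with exactly 3 WT libraries had a median width of 1273 bp, and 18.6% of them lay within 1 Mb of a chromosome end. Just outside it, 7514 intervals with exactly 2 WT libraries and no KO library had a median width of 861 bp, and 10.3% lay near an end. Another 716 intervals had at least 3 WT libraries and a region of exactly 1 KO library. Their median width was 1656 bp, and 22.6% lay near an end. The 211 intervals of all 4 WT libraries were wider, at 2031 bp, and 34.6% of them lay near an end.

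Narrow WT intervals were left without a KO region far more often than wide ones. Of the intervals called in at least 3 WT libraries, 69.8% of those under 1 kb were WT-only, 46.2% of those from 1 to 2 kb, 30.9% of those from 2 to 3 kb and 16.7% of those from 3 to 5 kb. Only 18 of 344 from 5 to 10 kb and 3 of 134 of 10 kb or more were WT-only. Wide intervals gather the regions of many libraries by construction, so width and the number of KO libraries are not independent. The deposited fold over input was slightly higher in WT-only intervals than in the other intervals with at least 3 WT libraries in each WT library, with medians of 4.56 and 4.30 in WT PMA replicate 1, 4.82 and 4.38 in WT PMA replicate 2, 5.18 and 4.635 in WT mock replicate 1, and 5.04 and 4.51 in WT mock replicate 2. Their input was lower, at a median of 3.23 tags per kb and 10 M in the WT regions of WT-only intervals and 3.83 in those of the others.

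WT-only intervals were not isolated from KO signal. A KO region lay within 10 kb of 1069 of them (77.5%) and within 1 kb of 250 (18.1%), and the median gap to the nearest KO region was 3.72 kb. For 17 intervals the gap was at least 100 kb. Called length in the flanks, 50 kb on either side of the interval, was nevertheless low in KO libraries. It averaged 3.48 and 2.79 kb per interval in KO PMA, 2.07 and 1.92 kb in KO mock, 15.5 and 11.2 kb in WT PMA, against 8.17 and 6.36 kb in WT mock. Around the intervals that had a KO region as well, it was 16.4 and 13.8 kb in KO PMA, 8.57 and 8.43 kb in KO mock, 15.2 and 13.8 kb in WT PMA, against 8.62 and 8.59 kb in WT mock. The flanks belong to the contrast that chose the intervals, and flanks of neighbouring intervals overlap, so these values are a description.

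**Figure D1:**
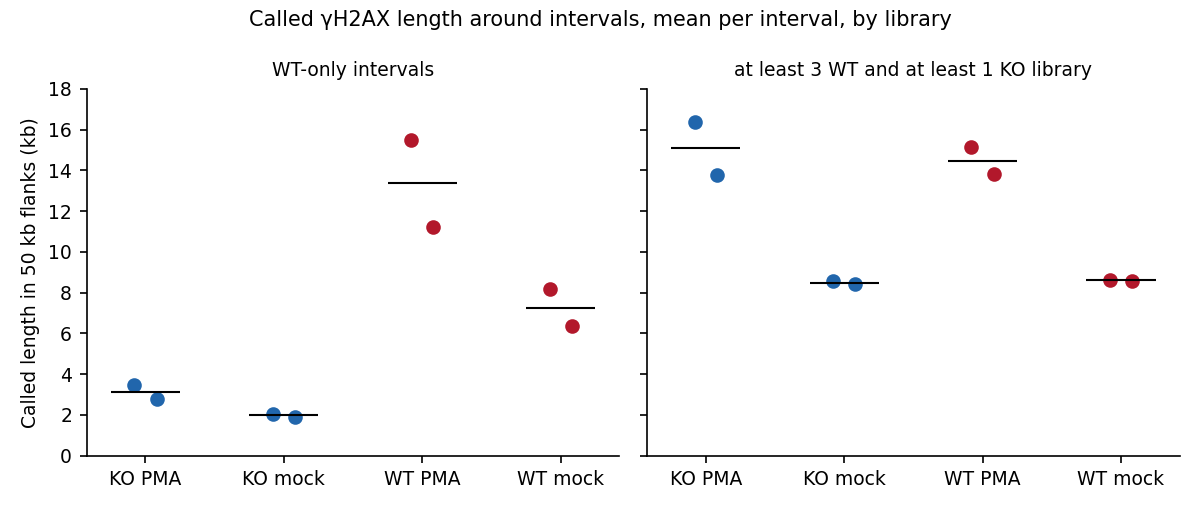
Called γH2AX length (kb, mean per interval) in the 50 kb on either side of WT-only intervals (left) and of intervals with at least 3 WT and at least 1 KO library (right), 1 point per library with KO in blue, WT in red and the mean as a line. KO points lie at 1.92 to 3.48 kb beside WT-only intervals and at 8.43 to 16.4 kb beside the others.

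The WT-only intervals were spread unevenly over 21 of the 22 autosomes. Chromosome 1 held 324 of them (23.5%), chromosome 3 held 206 (14.9%) and chromosome 6 held 185 (13.4%). Of all intervals called in at least 3 WT libraries, these chromosomes held 18.8%, 9.62% and 13.8% in the same order. The count on chromosome 6 was thus near its share of those intervals. Chromosome 14 held none, with 1 interval called in at least 3 WT libraries. As a share of the intervals called in at least 3 WT libraries, WT-only intervals made up 57.1% on chromosome 2 (exact 95% interval 48.5 to 65.5%), 57.1% on chromosome 3 (51.8 to 62.2%), 53.7% on chromosome 18 (44.9 to 62.4%) and 67.6% on chromosome 15 (49.5 to 82.6%). The share was low on chromosome 22 at 8.16% (4.29 to 13.8%), on chromosome 16 at 10.9% (5.77 to 18.3%), on chromosome 19 at 17.6% (8.40 to 30.9%) and on chromosome 17 at 19.0% (13.3 to 25.9%). These intervals cover counting error only and treat neighbouring regions as independent, which they are not.

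**Figure D2:**
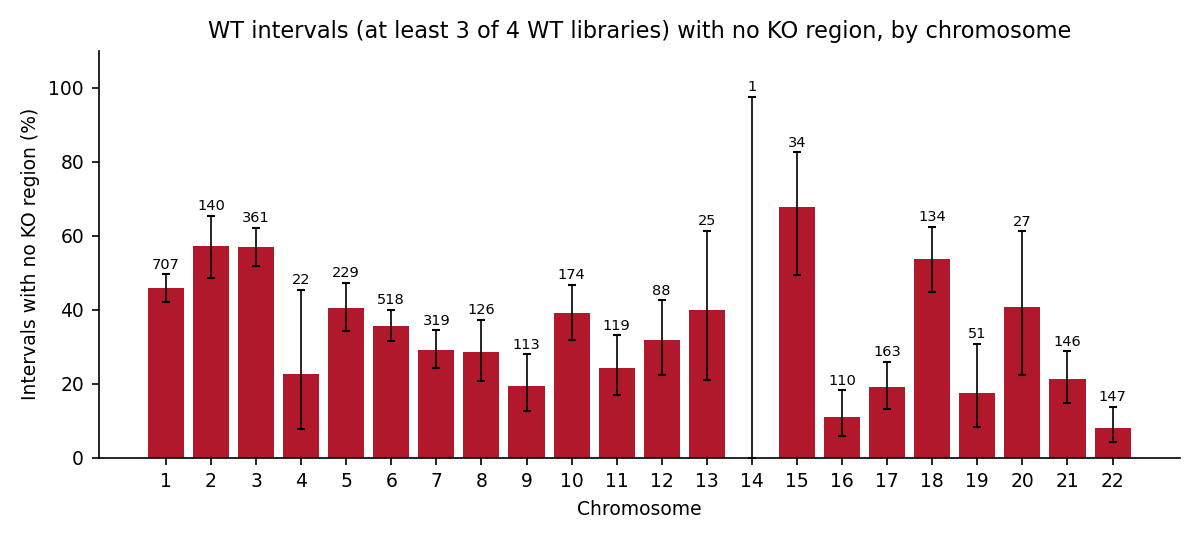
Share (%) of the intervals called in at least 3 WT libraries that held no KO region, by chromosome, with exact 95% intervals as error bars and the number of intervals above each bar. Chromosomes 2, 3, 15 and 18 lie above 50%, and chromosomes 9, 16, 17, 19 and 22 below 20%, while chromosome 14 had 1 interval in all.

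The counterpart set, 4600 intervals called in at least 3 KO libraries and in no WT library, was placed otherwise. Chromosome 19 held 9 WT-only intervals (0.65%) and 1047 of the KO-only counterpart (22.8%). Chromosome 16 held 12 (0.87%) and 512 (11.1%). Chromosome 3 held 206 (14.9%) and 74 (1.61%), and chromosome 18 held 72 (5.22%) and 5 (0.11%). Both sets were chosen on the same contrast, so no test was made.

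Within chromosomes the WT-only intervals came in groups. In 1022 intervals (74.1%) another lay within 100 kb, and the median gap to the nearest was 20.3 kb. Windows of 1 Mb with at least 10 of them numbered 25 and held 439 of the 1380. The fullest, on chromosome 3 from 4000001 to 5000000, held 65, out of 87 intervals called in at least 3 WT libraries. Called length there was 16.6 and 11.3 kb in KO PMA, 6.13 and 4.27 kb in KO mock, 246 and 203 kb in WT PMA, against 111 and 77.2 kb in WT mock. On chromosome 3 from 33000001 to 34000000 there were 30 WT-only intervals of 40, with 7.13 and 5.13 kb in KO PMA, 5.47 and 3.43 kb in KO mock, 169 and 128 kb in WT PMA, against 45.4 and 28.0 kb in WT mock. KO libraries were below every WT library in both windows, as the choice of the intervals favours.

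The longest runs of consecutive intervals called in at least 3 WT libraries, all of them WT-only, were 15 intervals on chromosome 3 (33175471 to 33744862), 15 on chromosome 1 (between 167947235 and 173391026) and, tied at 13 with 2 others on chromosome 1, that on chromosome 6 (between 535509 and 593259). The run on chromosome 6 was the densest of these, with 33.2 kb of WT-only intervals in 57.8 kb, and no KO library called any region within it. WT called length in these 13 intervals was 10.8 and 6.38 kb in PMA and 25.5 and 12.8 kb in mock. The tied runs were higher in PMA, with 18.6 and 10.4 kb in WT PMA, against 9.90 and 1.77 kb in WT mock between 212895403 and 220173996, and 20.6 and 11.3 kb in WT PMA, against 8.48 and 1 kb in WT mock between 185134609 and 193101713. The run on chromosome 3 was also higher in PMA, with 72.1 and 49.5 kb called over its whole span in WT PMA and 23.0 and 10.4 kb in WT mock. Of the 122 merged intervals in that span, 9 held a KO region, and each KO library called 0.50 to 1.79 kb there.

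Chromosome ends held a large part of the WT-only intervals, but intervals near ends were no more often WT-only than those of the interior. Within 1 Mb of the 39 ends examined lay 290 WT-only intervals (21%, exact 95% interval 18.9 to 23.3%), and 1090 lay in the interior. Of all 137665 merged intervals, 5.60% lay that near an end, and of the KO-only counterpart 5.80%. Among intervals called in at least 3 WT libraries, however, 25.2% did, so that WT-only intervals made up 30.7% (27.8 to 33.7%) of the 945 near ends and 38.8% (37.0 to 40.6%) of the 2809 in the interior. The width of the intervals differed along with position. Under 1 kb, 63.8% near ends and 70.8% in the interior were WT-only. At 1 to 2 kb, 48.0% near ends and 45.8% in the interior were WT-only, and at 2 to 5 kb 24.4% near ends and 24.3% in the interior. At 5 kb or more it was 6.44% near ends and 2.90% in the interior. The share of WT-only intervals near ends also rested on the WT PMA libraries, since it was 41.2% without replicate 1 and 42.5% without replicate 2.

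The share varied at a finer scale of distance. WT-only intervals made up 36.5% of the intervals within 200 kb (99 of 271), 28.3% from 200 kb to 1 Mb (191 of 674), 18.4% from 1 to 2 Mb (23 of 125), 49.0% from 2 to 5 Mb (145 of 296) and 38.6% further in (922 of 2388). The KO-only counterpart was nearly missing from the outermost stretch, with 6 of 4600 intervals (0.13%) within 200 kb, against 99 of 1380 WT-only intervals (7.17%). From 1 to 2 Mb this turned round, at 23 WT-only (1.67%) and 503 KO-only intervals (10.9%). WT-only intervals near ends were wider than interior ones, with a median of 1671 and 1280.5 bp, and 13 of the 21 that reached 5 kb lay there. Intervals with at least 3 WT and at least 1 KO library were also wider near ends, at 3292 and 2240 bp. Of those that reached 5 kb, 189 of 457 lay near ends.

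**Figure D3:**
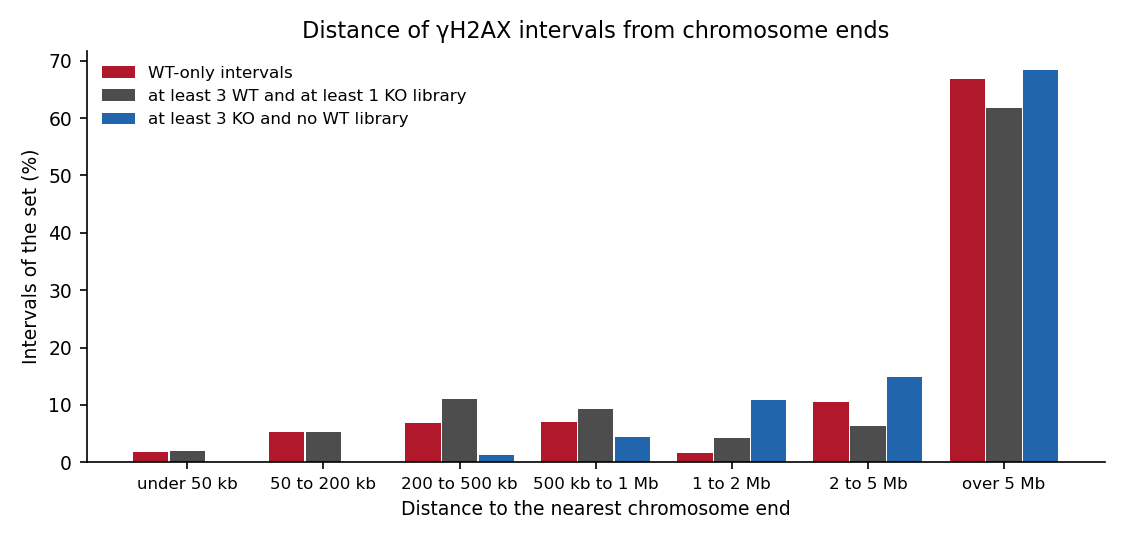
Share (%) of each set of intervals by distance to the nearest chromosome end, for WT-only intervals (red), intervals with at least 3 WT and at least 1 KO library (grey) and intervals with at least 3 KO and no WT library (blue). Within 200 kb the blue bars come to 0.13% and the red bars to 7.17%.

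Single ends differed widely. WT-only intervals were present at 35 of 39 ends, with most at the start of chromosome 6 (36 of 57 intervals called in at least 3 WT libraries), the start of chromosome 18 (29 of 44) and the end of chromosome 15 (20 of 28). At the start of chromosome 17 it was 11 of 13, at the start of chromosome 2 10 of 13 and at the start of chromosome 10 14 of 20. Other ends kept KO regions in nearly all their intervals. The end of chromosome 7 had 5 WT-only intervals of 88, the start of chromosome 11 2 of 55, and the end of chromosome 17 8 of 80. These ends were chosen after their values were seen.

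The choice of intervals counted WT libraries without regard to PMA, but it was not neutral for a comparison of WT PMA with WT mock. The WT PMA libraries had 42356 and 36067 autosomal regions and the WT mock libraries 14062 and 11690, and most intervals entered with 1 library uncalled, which is then at 0. Of the 1090 interior intervals, 545 lacked mock replicate 2 and 267 lacked mock replicate 1. Of the 290 near ends, 88 lacked PMA replicate 2 and 49 lacked PMA replicate 1. The direction of the values below is therefore partly set by the choice. Total called length was not taken for the 211 intervals called in all 4 WT libraries alone, so the lengths below lack that comparison. Only the interval-by-interval values further on are also given for them. In WT-only intervals near chromosome ends less length was called after PMA, and in interior ones more. Near ends the WT PMA libraries had 245 and 167 kb, and the WT mock libraries 410 and 326 kb. In the interior, WT PMA had 1187 and 900 kb, against 546 and 349 kb in WT mock. The groups did not overlap in either class, and the sign was opposite. The mean was 206 ± 55.4 kb in WT PMA, against 368 ± 59.0 kb in WT mock near ends (SD, n = 2 each). In the interior it was 1044 ± 203 kb in WT PMA, against 447 ± 139 kb in WT mock (SD, n = 2 each). PMA over mock was 0.554-fold near ends and 2.37-fold in the interior (geometric means). Ends held 17.1 and 15.7% of the called length of WT-only intervals in WT PMA, and 42.9 and 48.3% in WT mock. Each of these differences had a two-sided exact permutation p of 0.333, the smallest that 2 libraries against 2 allow.

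**Figure D4:**
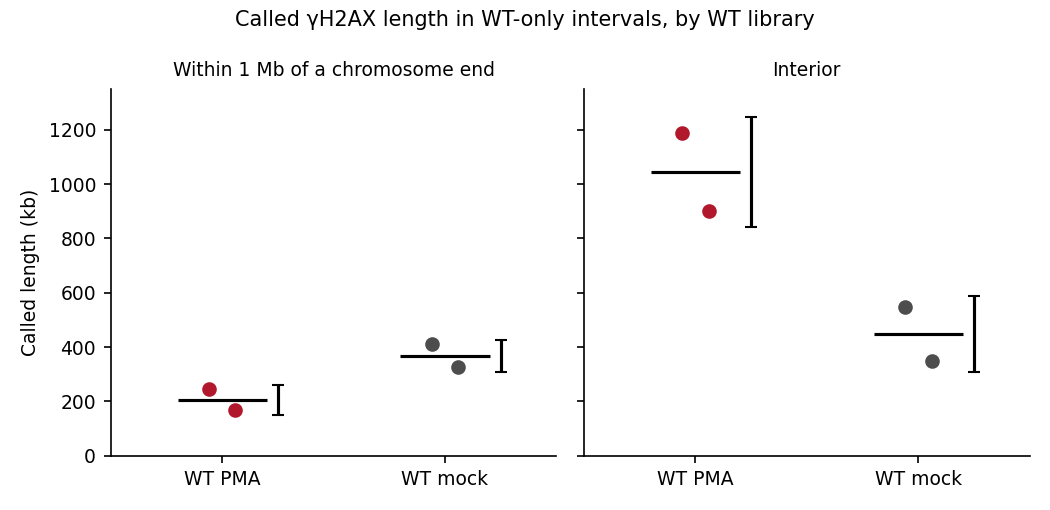
Called γH2AX length (kb) inside WT-only intervals in each WT library, near chromosome ends (left) and in the interior (right), with the mean as a line and the SD as the bar beside it (n = 2 per group). PMA points lie below mock points near ends (167 and 245 against 326 and 410 kb) and above them in the interior.

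The split was not shown to be particular to WT-only intervals. Over all called length of the WT libraries, PMA over mock was 0.649-fold near ends and 4.72-fold in the interior. The other 655 end intervals had 1307 and 1222 kb called in WT PMA, against 1435 and 1484 kb in WT mock (0.866-fold). The other 1719 interior intervals had 2339 and 2114 kb in WT PMA, against 838 and 742 kb in WT mock (2.82-fold). Signal in regions that every library called moved with treatment too. In the 275 intervals called in all 8 libraries, the median was 34.9 and 43.1 tags per 10 M in WT PMA and 19.6 and 27.4 in WT mock. With libraries scaled on these intervals, the median log2 difference between WT PMA and WT mock over WT-only intervals was −1.07 near ends and 0.53 in the interior, against −0.67 and 0.92 without that scaling.

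Interval by interval, the change with PMA was tested with limma on log2(tags per 10 M + 5) over all 3754 intervals called in at least 3 WT libraries, with a Benjamini-Hochberg adjusted p of 0.05 as the threshold. Limma can take the spread of an interval from a trend over all intervals tested, and the SE of the intervals named below followed that trend. On chromosome 2 the SE was 0.69 from 270535 to 273541, with 25.8 and 25.3 tags in WT PMA. It was 0.66 from 32932 to 42410, with 12.9 and 0 tags in WT PMA. The spread between an interval's own libraries thus had little visible part in its SE and p-value. A library without a region is listed at 0 tags, so fold changes are on this scale and depend on the added 5. Of the intervals tested, 4.16% rose and 1.92% fell. Of the 1380 WT-only intervals, 15 rose (1.09%) and 11 fell (0.80%), both shares below those of all intervals tested. All 15 that rose lay in the interior (1.38% of 1090) and all 11 that fell lay within 1 Mb of an end (3.79% of 290). The other intervals tested were split in the same way, with larger shares. In the interior 119 of 1719 rose (6.92%) and 0 fell, where 335 had an unadjusted limma p under 0.05 in either direction, and near ends 22 of 655 rose (3.36%) and 61 fell (9.31%). Among the 876 intervals called in all 4 WT libraries, where no library is at 0, 68 rose and 39 fell. Of the WT-only ones, 7 of 138 in the interior rose and 5 of 73 near ends fell, and 0 went the other way. Of the others, 45 of 317 in the interior rose, and near ends 34 of 348 fell and 16 rose. Without WT PMA replicate 1, the median log2 difference of WT-only intervals was −0.48 near ends and 0.83 in the interior. Without WT PMA replicate 2 it was −0.30 and 0.90. Each of these fits leaves 1 PMA library. Without either WT mock library no interval passed, WT-only or other, while 1076 (without replicate 1) and 808 (without replicate 2) of the 3754 had an unadjusted limma p under 0.05. With one tag threshold for all libraries none passed in limma either, and 526 of 2889 had an unadjusted p under 0.05.

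The median WT-only interval was 0.82 higher in WT PMA than in WT mock on the log2 scale, near the 0.89 of all intervals tested. Near ends the median was −0.67 (quartiles −1.32 and 0.58), and 185 of 290 intervals had a negative difference. In the interior it was 0.92 (quartiles 0.58 and 1.31), and 926 of 1090 had a positive one. Within 200 kb of an end the median was −1.08, with 80 of 99 intervals negative, and from 200 kb to 1 Mb it was −0.30, with 105 of 191 negative. The other intervals with at least 3 WT libraries had a median of −0.58 within 200 kb (n = 172), 0.24 from 200 kb to 1 Mb (n = 483) and 1.12 beyond 5 Mb (n = 1466), where WT-only intervals had 0.94 (n = 922). Centring each library on its own median moved the median of all intervals tested from 0.89 to 0.46, and left −1.10 for WT-only intervals near ends and 0.49 in the interior. Other settings made both medians smaller. They were −0.31 and 0.44 in intervals called in all 4 WT libraries, −0.18 and 0.18 with regions at least 6-fold over input, and −0.27 and 0.37 with 20 added in place of 5. The median near ends was −0.30 without WT PMA replicate 2, and that of the interior was 0.49 without WT mock replicate 2. The signs held in these settings.

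**Figure D5:**
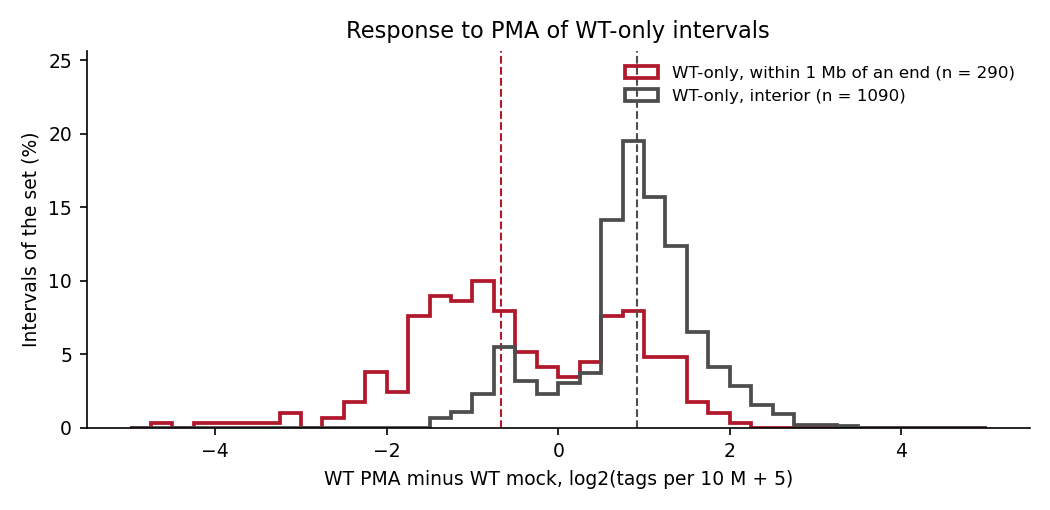
Distribution of the log2 difference between WT PMA and WT mock, in log2(tags per 10 M + 5), for WT-only intervals within 1 Mb of a chromosome end (red, n = 290) and in the interior (grey, n = 1090), with medians as dashed lines at −0.67 and 0.92. The red distribution has one peak below 0 and another above it, and the grey one lies mostly above 0.

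The end intervals with the largest fall after PMA were wide, and had many tags in mock cells when summed over their called length. They were not strong by window. Of the 290 WT-only intervals near ends, 0 had a WT window above 2-fold the highest KO threshold. On chromosome 3 from 60138 to 76976, the widest and the outermost of its chromosome arm, WT PMA had 12.1 and 0 tags per 10 M and WT mock had 226 and 252. The nearest KO region lay 162 kb away. On chromosome 11 from 134935849 to 134945943, which reaches the last called position of the chromosome, WT PMA had 0 and 14.1 tags and WT mock 160 and 187. The start of chromosome 2 from 32932 to 42410 had 12.9 and 0 tags in WT PMA and 145 and 128 in WT mock. In each of these 3 intervals both PMA libraries lay far below both mock libraries, in tags and in called length. Each was called in both mock libraries and 1 PMA library, with the other PMA library listed at 0. None of them is among the intervals called in all 4 WT libraries, and the choice of intervals favoured their direction. On chromosome 3 the called length was 921 and 0 bp in WT PMA and 13937 and 15913 bp in WT mock. The log2 differences were −4.72 (SE 0.59, limma adjusted p = 9.08e-13) on chromosome 3, −4.18 (SE 0.62, limma adjusted p = 4.39e-09) on chromosome 11 and −3.90 (SE 0.66, limma adjusted p = 5.36e-07) on chromosome 2. These calls share the loss stated above for fits without a WT mock library. Under one tag threshold they were −4.92 on chromosome 3 (limma adjusted p = 0.176) and −1.45 on chromosome 2 (limma adjusted p = 0.570). At 6-fold over input the chromosome 11 interval turned to 0.97.

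A further pair of end intervals fell in the same way, again with 1 PMA library listed at 0. On chromosome 5 from 127487 to 134697, WT PMA had 6.62 and 0 tags per 10 M and WT mock 66.0 and 113 (log2 difference −3.59, SE 0.77, limma adjusted p = 0.000197). On chromosome 12 from 133764944 to 133772498 WT PMA had 0 and 19.5 tags and WT mock 95.2 and 95.8 (−3.18, SE 0.69, limma adjusted p = 0.000254). Under one tag threshold both calls were lost, at −4.09 on chromosome 5 (limma adjusted p = 0.176) and −0.95 on chromosome 12 (limma adjusted p = 0.560). Not all wide end intervals did so. On chromosome 6 from 170894168 to 170903650, WT PMA had 105.9 and 99.1 tags and WT mock 123 and 90.6, so that the groups overlapped. On chromosome 1 from 249184987 to 249198079, WT PMA had 88.7 and 63.7 tags and WT mock 186 and 102, which did not overlap, but the log2 difference of −0.84 missed the threshold (limma adjusted p = 0.277).

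The interior WT-only intervals with the largest rise after PMA were stretches of signal in PMA cells over little or none in mock cells. On chromosome 5 from 126156273 to 126164204, WT PMA had 100 and 67.1 tags per 10 M, and WT mock had 8.35 and 0. On chromosome 3 from 4577414 to 4582592, inside the fullest 1 Mb window, WT PMA had 66.2 and 74.8 tags and WT mock 7.93 and 0. On chromosome 7 from 123185233 to 123192326, WT PMA had 107 and 34.2 tags and WT mock 6.68 and 0. Both PMA libraries were above both mock libraries in each. All 3 were called in both PMA libraries and 1 mock library, with the other mock library listed at 0. The choice of intervals thus favoured their direction. The log2 differences were 3.41 (SE 0.77, limma adjusted p = 0.000444), 3.23 (SE 0.79, limma adjusted p = 0.00186) and 3.11 (SE 0.83, limma adjusted p = 0.00502). All 3 calls were lost without WT PMA replicate 1, at limma adjusted p = 0.0959, 0.0593 and 0.678 in the same order. The one on chromosome 3 was also lost without WT PMA replicate 2 (limma adjusted p = 0.0891).

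The others named for a rise or for their width were weaker, each again with 1 mock library listed at 0. On chromosome 3 from 33432308 to 33437177, within the longest run, WT PMA had 73.9 and 39.5 tags per 10 M and WT mock 0 and 9.84 (log2 difference 2.78, SE 0.83, limma adjusted p = 0.0174). On chromosome 1 from 117653146 to 117656736 WT PMA had 41.9 and 53.0 tags and WT mock 0 and 6.84 (2.76, SE 0.87, limma adjusted p = 0.0305). Both calls were lost after centring, at limma adjusted p = 0.0903 on chromosome 3 and 0.134 on chromosome 1, and without WT PMA replicate 1, at limma adjusted p = 0.528 and 0.263. On chromosome 1 from 244584719 to 244592351, among the widest of the interior, WT PMA had 120 and 46.0 tags and WT mock 30.5 and 0 (limma adjusted p = 0.00604), with a KO region 0.256 kb away. The interval on chromosome 1 from 192995657 to 193001391 had 79.5 and 24.2 tags in WT PMA and 9.60 and 0 in WT mock, and missed the threshold (limma adjusted p = 0.0516).

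The intervals called in all 4 WT libraries with the highest fold over input showed no change with PMA past the threshold. Near ends the first by the lowest of its 4 folds was on chromosome 2 from 270535 to 273541. It had 25.8 and 25.3 tags per 10 M in WT PMA and 28.8 and 36.8 in WT mock, at deposited folds of 7.52 and 9.42 in WT PMA and 6.70 and 6.84 in WT mock. In the interior it was on chromosome 2 from 32247806 to 32250001, with 23.2 and 14.1 tags in WT PMA and 6.68 and 8.98 in WT mock, at folds of 8.62 and 6.57 in WT PMA and 12.4 and 16.7 in WT mock. A short interval near the end of chromosome 22, from 51154785 to 51155737, had 5.89 and 6.48 tags in WT PMA and 7.52 and 7.27 in WT mock, with a KO region 0.244 kb away. Across the 16 intervals chosen this way, 8 near ends and 8 in the interior, the lowest of the 4 folds ran from 4.79 to 6.70, and the log2 difference between WT PMA and WT mock from −1.55 to 1.48.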

How the data were processed

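Per the file headers, the authors called γH2AX regions in each library with HOMER, in windows of 500 bp joined into regions, at least 2-fold over the WT mock input. CASAVA 1.4, BWA and hg19 are named in the submitters' processing notes. The deposited signal is a region's tags per 10 M tags of its library. In the deposited lists the fold is the authors' ratio of tags to input, the score is the caller's tag number of the strongest window, and each p-value is the caller's. At most 1 tag per bp was counted, per the file headers. Lists give tags only for called regions, so a library without a region is listed at 0.

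The rest was computed here. Coordinates and overlaps follow the files. A chromosome start is position 0, and its end the last position called in any library. The starts of chromosomes 13, 14, 15, 21 and 22 were not counted as ends, and any intervals there were kept and counted as interior. No hg19 annotation was used here, so intervals carry no gene names. Limma 3.58.1 (R 4.3.3, trend) was fitted on the 4 WT libraries, without KO libraries because WT-only intervals are at 0 there. It was run on simulated data with normal noise around the interval means. No library was set to 0 as uncalled in that simulation, so it does not cover this feature of the data. Shares have exact Clopper-Pearson intervals, for counting error only. Named intervals were, near ends and in the interior, the 8 with the highest lowest fold among those of all 4 WT libraries, the 4 widest, the 5 with the largest PMA difference each way past the threshold (at most 1 per Mb each), and the 3 longest runs. Dense windows and single ends were chosen after seeing values. Intervals, rules and tests were chosen with earlier results of these data known. Python 3.11.15, numpy 2.4.6, pandas 2.3.3 and scipy 1.17.1 were used.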

Additional observations from a re-analysis of the deposited data

Results flagged for a closer look

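In intervals near chromosome ends called in at least 3 WT libraries and at least 1 KO library, called length after PMA went opposite ways in the genotypes: PMA over mock was 1.24-fold in KO (1013 and 872 kb in PMA, 751 and 765 kb in mock) and 0.867-fold in WT (1307 and 1222 kb in PMA, 1435 and 1484 kb in mock), from the means of 2 libraries each. Both KO PMA libraries lay above both KO mock libraries and both WT PMA libraries below both WT mock libraries. Elsewhere KO libraries rose with PMA as WT ones did. Interior intervals of the same kind had 3027 and 2567 kb in KO PMA and 1310 and 1260 kb in KO mock. In the 275 intervals called in all 8 libraries, the median was 55.8 and 48.2 tags per 10 M in KO PMA and 38.7 and 39.1 in KO mock. KO PMA libraries also had more autosomal regions (42512 and 37561, against 24341 and 23884 in KO mock). The lengths near ends were not scaled for this, and the difference between the genotypes was not tested.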

How the results depend on the processing

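The number of WT-only intervals followed the calling rules: 162 with one tag threshold for all libraries, 156 at 6-fold over input or more, 149 with regions of at least 1000 bp, 311 with no KO region within 10 kb, 211 in all 4 WT libraries and 606 when every library was cut to its 11690 best regions. Of the 149, 47 overlapped a WT-only interval, and of the 606, 332, so the values under these rules describe in part other intervals. Leaving out 1 library gave 301 to 1673. The share within 1 Mb of an end was 27.8%, 33.3% and 63.1% under the first 3 of these, 34.6% in all 4 WT libraries, 25.7% at equal region number, 13.7% with regions within 1000 bp joined, 7.17% counted within 200 kb, and 16.1 to 42.5% without 1 library. The median width became 1742.5, 980.5 and 3302 bp under the first 3, 2031 bp in all 4 WT libraries, 1712 bp at equal region number and 2242 bp after joining. The cause of these shifts was not tested, beyond what each rule itself does.

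The opposite directions of called length with PMA near ends and in the interior held in sign under one threshold, 6-fold, tags, 200 kb, 2 Mb, and without any 1 WT library. At 6-fold the interior difference was only 0.48 on the log2 scale. PMA and mock libraries overlapped there (two-sided exact permutation p = 0.667). In limma, all intervals that rose and fell were 48 and 32 with all 8 libraries in one fit, 2124 and 299 for intervals of any WT library, 7665 and 959 for at least 2 WT libraries (which adds intervals of both PMA or both mock libraries only), and 0 and 0 with one threshold or at 6-fold (38 with an unadjusted p under 0.05 there). Those that rose were 74 after centring. Of WT-only intervals, 4 rose with all 8 libraries, 74 rose and 33 fell for any WT library, 3 rose and 18 fell after centring, and 0 under one threshold or at 6-fold. Leaving out 1 WT library gave 0 to 94 that rose and 0 to 77 that fell in all, and 0 to 7 and 0 to 17 among WT-only intervals. Chosen after seeing the data, intervals of all 4 WT libraries only gave 68 and 39, with 7 and 5 WT-only, and scaling on intervals called in all 8 libraries gave 30 that rose, with 1 WT-only. At 6-fold the chromosome 11 interval turned to 0.97 on the log2 scale.

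Whether same-numbered WT libraries share a culture is not stated, and the correlation of their deviations was 0.056. With the replicate number as a block, 164 intervals rose and 76 fell, 16 and 11 of them WT-only, and the permutation p was 0.5, the smallest 4 labellings allow.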

Other observations

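On chromosome X, outside the autosomes used here, 2 of 635 merged intervals were called in at least 3 WT libraries, and 1 of these had no KO region.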
